A study of Homo sapiens with 8 samples.

Results

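The comparison set the whole EglN2 shRNA line against the whole Scr line, and asked which genes were read differently in the 2 lines at both days of the experiment. All 4 arrays titled inducible EglN2 shRNA and all 4 arrays titled Scr entered, which are 8 of the 8 arrays of the series. The EglN2 shRNA line is T47D, a human luminal breast cancer line, infected with a lentivirus whose conditional hairpin RNA targets EglN2. The Scr line is T47D infected with a lentivirus for the control hairpin Scr. In each line, day 0 stands for 0 h and day 2 for 48 h with doxycycline at 1 ug/ml, on 2 arrays each. Infection with a lentivirus is thus shared by all 8 arrays, and doxycycline by the day 2 arrays of both lines. The labels name no clone, pool or second infection, so each hairpin stands for 1 infected line. They also do not tell whether replicates are separate cultures. The p-values therefore cover the spread between these arrays, which may be technical, and say nothing of other infected lines.

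Levels are RMA log2 values per probe set, so a difference of 1 is a factor of 2. Of 33297 probe sets, the 21214 with a gene symbol were tested. The difference is the EglN2 shRNA line minus the Scr line, averaged over both days with the day as a covariate. A probe set was called where limma's adjusted p was under 0.05.

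EglN2, also named PHD1, belongs to the prolyl hydroxylases that use oxygen to mark HIF, the hypoxia-inducible factor, on its alpha subunits. The ubiquitin ligase subunit VHL binds the marked subunits, which are then degraded. A conditional hairpin is transcribed once doxycycline is added, so the day 0 arrays show the EglN2 shRNA line before induction and the day 2 arrays after it.

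The label T47D was checked against luminal markers. Their means ran from bright to near the array medians of 7.81 to 7.86. KRT18, a keratin, averaged 14.12 in the EglN2 shRNA line and 14.08 in the Scr line. GATA3, a luminal transcription factor, averaged 12.24 in the EglN2 shRNA line and 12.36 in the Scr line. The secreted trefoil protein TFF1 was dim, at 7.87 in the EglN2 shRNA line and 7.97 in the Scr line, and TFF3 and ELF3 were also below 9 in both. Of the 19 measured luminal markers 5 had a positive and 14 a negative difference, with 0 called. The other cell type lists likewise had 0 called members. The median difference was 0.01 for 13 basal and myoepithelial markers and -0.07 for 20 fibroblast and mesenchymal markers. It was -0.05 for 14 leukocyte and endothelial markers. These differences do not tell whether such markers were absent. Of the basal list CDH3 averaged 10.075 in the EglN2 shRNA line and 9.98 in the Scr line, and S100A2 5.605 and 5.74. Of the mesenchymal list TWIST1 averaged 8.875 and 9.12, and THY1 6.65 and 6.85. CDH3 and TWIST1 were thus brighter than TFF1. The correlation over the tested probe sets was 0.992 to 0.997 between replicates of a group, and 0.988 to 0.996 between arrays of different lines. The number of arrays limits the precision, and the median standard error of the line difference was 0.09 on the log2 scale.

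Few genes separated the lines. 4 of the 21214 probe sets (0.0189%) were called, 1 higher (0.00471%) and 3 lower (0.0141%) in the EglN2 shRNA line. BCHE, CKAP4 and LIN28A were lower and SLC16A4 was higher in that line. Without adjustment, 1549 probe sets (7.3%) had a p under 0.05, 908 of them (4.28%) with a positive and 641 (3.02%) with a negative difference, where 5% in all would have one if nothing differed. The 4 arrays of one line did not overlap the 4 arrays of the other for 744 probe sets (3.51%), of which 433 (2.04%) were higher and 311 (1.47%) lower in the EglN2 shRNA line.

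**Figure D1:**
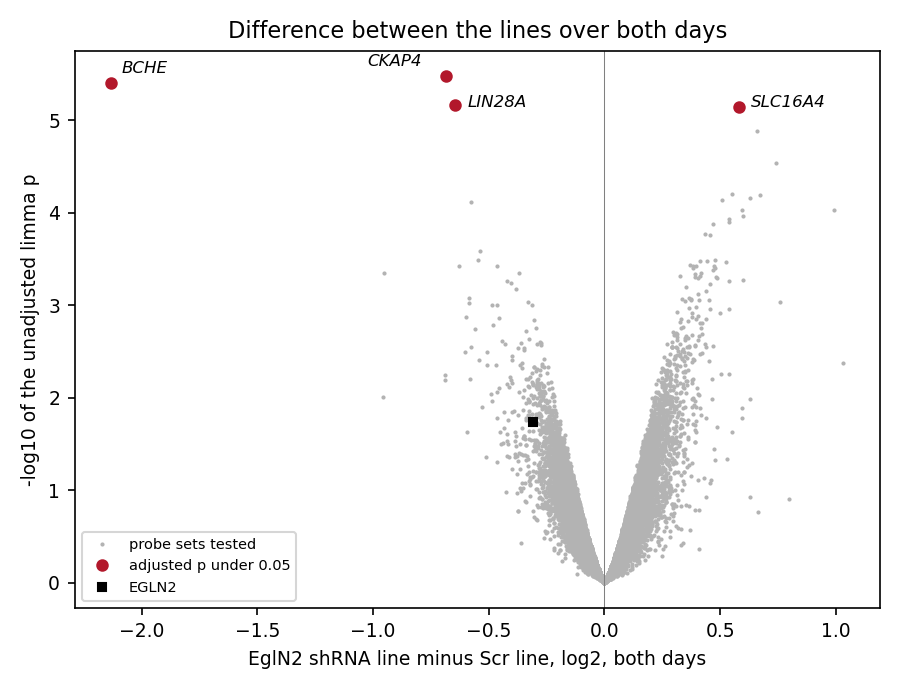
The x axis gives the log2 difference of each tested probe set, EglN2 shRNA line minus Scr line over both days, and the y axis -log10 of its unadjusted limma p. The 4 called genes are red, with BCHE far to the left at -2.13, and EGLN2 is the black square at -0.31.

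The promoters of the called genes are printed because these genes carry the comparison. They come from RefSeq on build GRCh38.p14 and run from 250 bases before to 50 bases after the gene's start, on the gene's own strand. BCHE lies at chr3:165837374-165837673, CKAP4 at chr12:106247971-106248270 and SLC16A4 at chr1:110390977-110391276, each on the minus strand. LIN28A was the other called gene. Capitals mark the core of the motif that HIF binds, ACGTG or GCGTG, searched on both strands.
BCHE: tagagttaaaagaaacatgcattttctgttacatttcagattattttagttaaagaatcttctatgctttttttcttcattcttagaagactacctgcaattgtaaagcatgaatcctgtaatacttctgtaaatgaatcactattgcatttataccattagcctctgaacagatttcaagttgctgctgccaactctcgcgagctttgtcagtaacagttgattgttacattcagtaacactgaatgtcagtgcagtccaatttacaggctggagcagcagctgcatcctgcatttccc
CKAP4: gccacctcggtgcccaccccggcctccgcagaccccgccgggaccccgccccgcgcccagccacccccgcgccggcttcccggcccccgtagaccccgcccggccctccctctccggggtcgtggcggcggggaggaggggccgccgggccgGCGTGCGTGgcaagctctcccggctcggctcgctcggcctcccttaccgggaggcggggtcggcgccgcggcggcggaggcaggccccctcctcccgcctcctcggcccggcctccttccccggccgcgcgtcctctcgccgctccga
SLC16A4: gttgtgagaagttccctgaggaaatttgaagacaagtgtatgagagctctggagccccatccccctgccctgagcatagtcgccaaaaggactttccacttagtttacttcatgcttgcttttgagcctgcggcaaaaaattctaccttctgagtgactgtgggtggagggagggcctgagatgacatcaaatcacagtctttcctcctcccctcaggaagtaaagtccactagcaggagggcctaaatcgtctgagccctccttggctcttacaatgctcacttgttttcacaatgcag

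The CKAP4 window held 2 matches, which overlap each other, and the BCHE and SLC16A4 windows held 0. Such a core is common: 48.4% of 35116 RefSeq promoters of 300 bases hold at least 1. The core ACGTG also lies inside the E-box CACGTG, held by 7.3% of the promoters and by 0 of the 3 shown. The windows differ in base composition. CKAP4 is 83.0% G or C with 46 CG pairs, SLC16A4 49.3% with 3 and BCHE 36.7% with 2, where the median promoter has 14 CG pairs.

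EGLN2, the hairpin's target, checks the labels. Its probe set, shared with the read-through transcript RAB4B-EGLN2, read 8.85 and 9.04 in the EglN2 shRNA line at day 0 and 8.26 and 8.29 at day 2. The Scr arrays read 8.97 and 9.0 before doxycycline and 8.81 and 8.9 after it. The day 2 pair of the EglN2 shRNA line lies below every other array, while the day 0 pairs of the lines overlap. Over both days the difference was -0.31 (SE 0.11, 95% confidence interval -0.56 to -0.06), which did not pass (limma adjusted p = 0.638). It was -0.04 at day 0 and -0.58 at day 2. EGLN2 thus did not have the pattern of the 4 called genes, whose differences stood at both days.

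BCHE encodes butyrylcholinesterase, an enzyme of blood plasma and many tissues that cleaves choline esters. Its level was 6.36 and 5.9 in the EglN2 shRNA line at day 0 and 5.44 and 5.59 at day 2. The Scr line stood at 7.41 and 7.99 on day 0 and at 8.56 and 7.86 on day 2. All 4 EglN2 shRNA arrays lie below all 4 Scr arrays, with a gap of more than 1 log2 unit. The means were 5.82 ± 0.41 in the EglN2 shRNA line and 7.96 ± 0.47 in the Scr line (SD, n = 4 each). BCHE fell by 2.13 (SE 0.24, confidence interval -2.67 to -1.59, limma adjusted p = 0.0388), a 4.38-fold lower level and the only difference below -1 among the tested probe sets. The difference was -1.57 at day 0 and -2.695 at day 2. Its change between the days was -1.125 and did not pass (limma adjusted p = 0.676). The BCHE call ended when the values were quantile normalized again (adjusted p = 0.0522) and when limma's moderation was left out (adjusted p = 0.503).

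Averaged over both days, the other genes of its list leaned slightly to negative differences. Of 15 measured esterases and cholinergic genes 5 had a positive and 10 a negative difference, and BCHE was the only one called. The list median was -0.06, against 0 over 18417 genes with 1 probe set each, and -0.02 without Scr day 0 replicate 1 or -0.03 without EglN2 shRNA day 0 replicate 1. PON2, an intracellular lactonase, read 10.69, 10.58, 10.62 and 10.58 in the EglN2 shRNA line, against 10.16, 10.26, 10.5 and 10.4 in the Scr line, with day 0 before day 2 here and in later runs of 4 values. Its groups do not overlap, at a difference of 0.29 that did not pass (adjusted p = 0.562). The carboxylesterase CES1 had -0.38 (SE 0.16) and acetylcholinesterase, ACHE, -0.26 (SE 0.11), with overlapping lines in both genes (adjusted p = 0.670 and 0.681). ACHE was at -0.17 without EglN2 shRNA day 0 replicate 2.

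CKAP4 encodes a membrane protein that keeps the sheets of the endoplasmic reticulum at their width and also serves as a receptor at the cell surface. EglN2 shRNA arrays gave 9.57 and 9.66 on day 0, then 9.14 and 9.08 on day 2. Scr arrays gave 10.27 and 10.14 on day 0, then 9.85 and 9.93 on day 2. Both lines were lower at day 2 than at day 0, and the EglN2 shRNA line was below the Scr line on every array. CKAP4 was 0.685 lower in the EglN2 shRNA line (SE 0.08, confidence interval -0.86 to -0.51, limma adjusted p = 0.0388), a 1.61-fold lower level. The difference was -0.59 at day 0 and -0.78 at day 2, with no call for its change between the days (limma adjusted p = 0.763). The CKAP4 call ended with no day term (adjusted p = 0.381) and without moderation (0.372).

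CKAP4 stood alone in its list as well. Of 22 measured genes of endoplasmic reticulum shape and membrane 17 had a positive and 5 a negative difference, and only CKAP4 was called. The list median of 0.05 became -0.03 without Scr day 0 replicate 1, 0.02 without EglN2 shRNA day 0 replicate 2, and 0.07 to 0.08 without one of the other Scr arrays. RTN3, a reticulon that bends these membranes, read 8.45, 8.42, 8.09 and 8.29 in the EglN2 shRNA line, against 8.7, 8.4, 8.62 and 8.83 in the Scr line. The groups overlap at 1 Scr array of day 0, and the difference of -0.325 (SE 0.11) did not pass (adjusted p = 0.631). SSR4, a subunit of the translocon-associated complex, had 0.14 (SE 0.09), which was 0.06 without EglN2 shRNA day 2 replicate 1 and 0.225 without its day 2 replicate 2. The ribosome-binding protein RRBP1 had 0.12 (SE 0.08), or 0.08 without Scr day 0 replicate 2, and both were short of the threshold.

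LIN28A encodes an RNA-binding protein of stem cells and embryos that blocks the maturation of let-7 microRNAs. It read 7.48 and 7.59 in the EglN2 shRNA line at day 0 and 7.63 and 7.8 at day 2. The levels in Scr cells were 8.1 and 8.2 on day 0, and 8.31 and 8.47 on day 2. The lines do not overlap, and within each line the day 2 pair is above the day 0 pair. LIN28A was 0.645 lower in the EglN2 shRNA line (SE 0.08, confidence interval -0.82 to -0.47, limma adjusted p = 0.0388), a 1.56-fold lower level. The difference was -0.615 on day 0 and -0.675 on day 2. Its change between the days did not pass (adjusted p = 0.933). The LIN28A call ended when each array was centred on its own median (adjusted p = 0.0720), after quantile normalization (0.0522), with a prior variance that follows intensity (0.0517), with no day term (0.226) and without moderation (0.487).

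A list of LIN28 and let-7 genes, written after these values were seen, had 19 measured members. Of these 7 had a positive and 11 a negative difference, with a median of -0.005 and only LIN28A called. Its paralog LIN28B had -0.135 (SE 0.09), with overlapping arrays. The let-7 family gene MIR98 read 5.09, 5.11, 5.15 and 5.29 in the EglN2 shRNA line, against 5.03, 4.99, 4.99 and 4.87 in the Scr line. Those groups do not overlap, at a difference of 0.19 (SE 0.08) that did not pass (adjusted p = 0.670). Other let-7 genes went both ways. MIRLET7I, the brightest of them, had -0.245 (SE 0.12) and MIRLET7F1 0.365 (SE 0.17), with overlapping lines in both. The probe sets of such genes are not made to measure the mature microRNA.

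SLC16A4 encodes a member of the monocarboxylate transporter family, whose best known members carry lactate and pyruvate. It read 6.59 and 6.45 in the EglN2 shRNA line at day 0 and 6.85 and 6.92 at day 2. Scr cells had 5.97 and 5.96 on day 0, and 6.24 and 6.32 on day 2. Every EglN2 shRNA array is above every Scr array, and both lines were higher at day 2. SLC16A4 was 0.58 higher in the EglN2 shRNA line (SE 0.07, confidence interval 0.42 to 0.74, limma adjusted p = 0.0388), a 1.49-fold higher level. The difference was 0.555 on day 0 and 0.605 on day 2 (adjusted p = 0.936 for the change between days). Among 8 measured members of its family, a list written after these values were seen, 3 had a positive and 5 a negative difference, and SLC16A4 alone was called. The SLC16A4 call ended with no day term (adjusted p = 0.387), with a prior variance that follows intensity (0.0706) and without moderation (0.313). SLC16A14 had -0.30 (SE 0.12, adjusted p = 0.668), from -0.04 at day 0 and -0.555 at day 2.

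**Figure D2:**
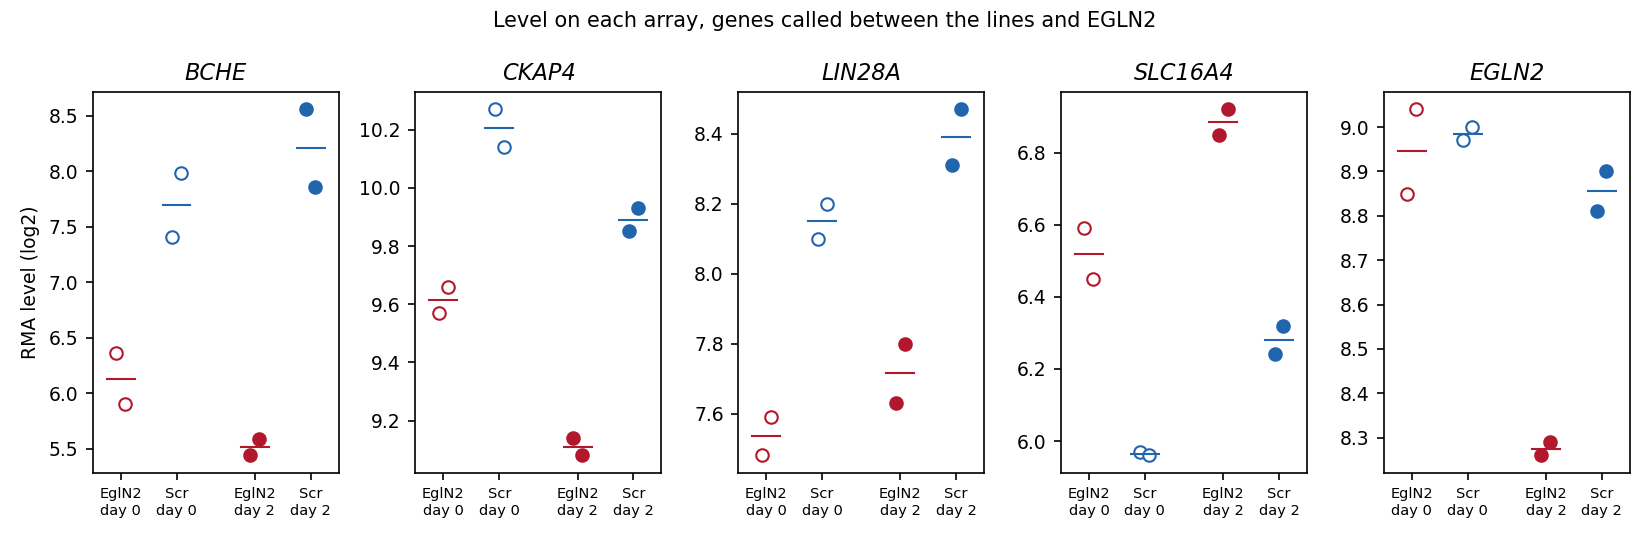
RMA log2 level (y axis, a range of its own for each gene) on each of the 8 arrays for the 4 called genes and EGLN2, with the EglN2 shRNA line in red left of the Scr line in blue at each day. Open points are day 0, filled points day 2 and bars the mean of 2 arrays; BCHE, CKAP4, LIN28A and SLC16A4 are apart at both days, EGLN2 at day 2 only.

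The 4 calls had the same sign at both days and in each alternative that tested them. BCHE ranged over these from -2.695 to -1.57, CKAP4 from -0.78 to -0.59, LIN28A from -0.675 to -0.605 and SLC16A4 from 0.555 to 0.619. Because the arrays of the lines do not overlap, the sign at each day and with an array left out could not turn. The constant sign thus adds no support to the calls. The threshold was less secure: 0 probe sets were called when EglN2 shRNA day 2 replicate 2, Scr day 0 replicate 2, Scr day 2 replicate 1 or Scr day 2 replicate 2 was left out, and 0 when the 12083 probe sets with no gene name were tested too. BCHE alone was called without EglN2 shRNA day 0 replicate 1 or Scr day 0 replicate 1, and none of the 4 without EglN2 shRNA day 0 replicate 2. All 4, and 5 further probe sets, were called without EglN2 shRNA day 2 replicate 1. With group means for each day, the day 0 arrays gave 0 calls and the day 2 arrays 16 (0.0754%), 2 higher (0.00943%) and 14 lower (0.066%). The day 2 count was 0 without Scr day 2 replicate 1 and at most 4 without any other array but EglN2 shRNA day 2 replicate 2. BCHE (adjusted p = 0.00973) and CKAP4 (0.0385) passed at day 2, while LIN28A (0.107) and SLC16A4 (0.107) did not. Both ALYREF probe sets (0.00424 each) and PPP1R11 (0.0328), not called over both days, passed at day 2 as well. At day 0 each of the 4 genes called over both days had an adjusted p of 0.447.

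The genes beside the 4 called ones on the chromosome, by RefSeq's gene order, had 0 calls among 24, where 0.0189% of all probe sets were called. Around BCHE the 6 measured neighbours lay between -0.03 and 0.105, and around LIN28A between -0.09 and 0.035. Around CKAP4 they lay between -0.115 and 0.47, the highest being TCP11L2, next to CKAP4, with overlapping arrays (SE 0.12, adjusted p = 0.458). Around SLC16A4 they lay between -0.04 and 0.15. RBM15, at 0.15, was the only one of the 24 whose arrays did not overlap between the lines. That share is near the 3.51% of all probe sets. The BCHE neighbours were dim in both lines. They ran from SI, at 4.13 (EglN2 shRNA) and 4.115 (Scr), to OTOL1, at 6.455 and 6.35, so they could show little difference. The called genes were picked for their difference, so their distance from the neighbours adds no support.

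**Figure D3:**
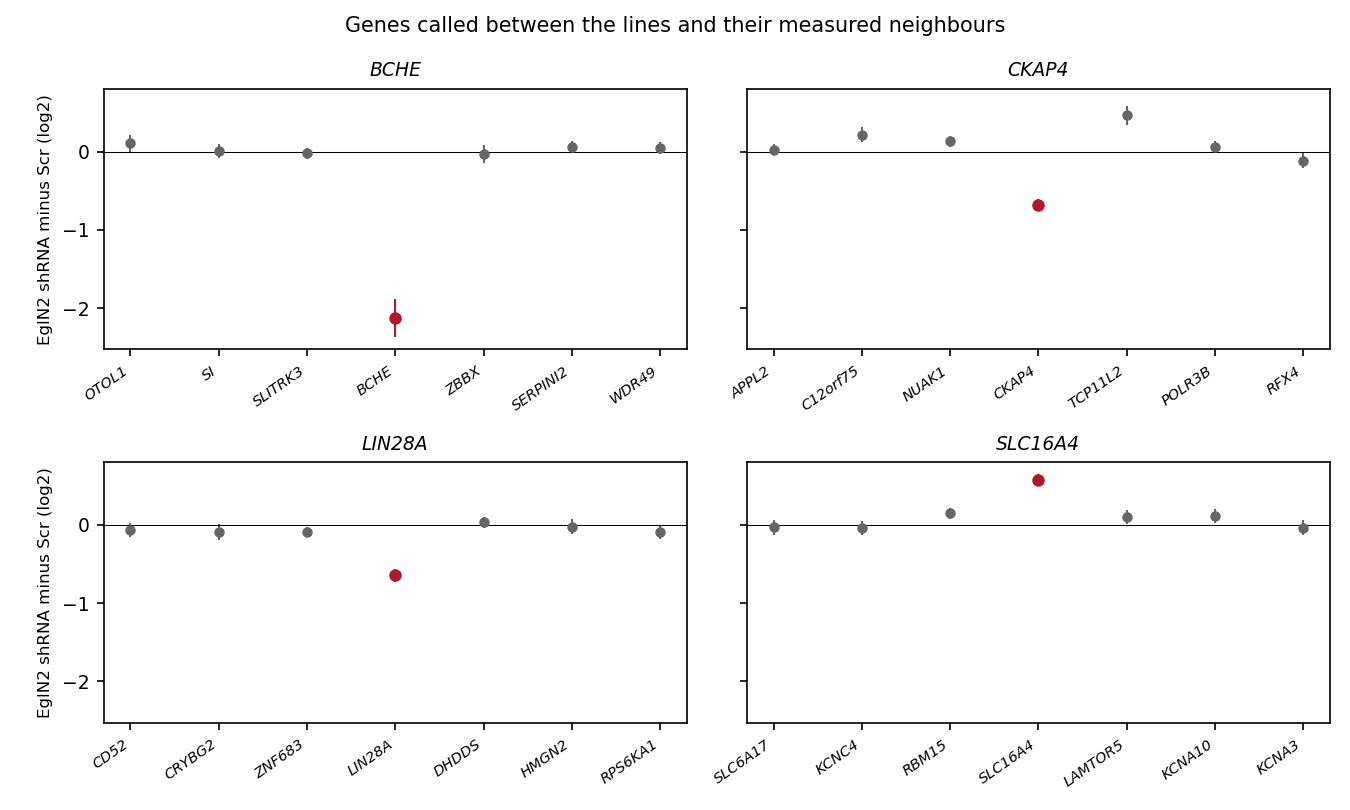
Log2 difference, EglN2 shRNA line minus Scr line (y axis, points with SE bars), for each called gene in red and its 3 measured neighbours on either side in grey, in chromosome order along the x axis. The called gene, picked for its difference, stands apart from its neighbours in all 4 panels. TCP11L2 beside CKAP4 is the highest neighbour at 0.47.

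The change of the line difference between the days was tested for every probe set, and 0 were called (limma, smallest adjusted p = 0.165), with 1511 (7.12%) at an unadjusted p under 0.05. ALYREF, an adaptor for mRNA export, had the largest moderated values below 0 on both of its probe sets. One read 12.14, 12.07, 10.74 and 10.89 in the EglN2 shRNA line, against 12.25, 12.11, 12.11 and 12.13 in the Scr line. Only the day 2 arrays of the EglN2 shRNA line are low, and the line difference was -0.075 at day 0 and -1.305 at day 2. Above 0 stood CLDN6, a claudin, at -0.595 on day 0 and 0.49 on day 2 (adjusted p = 0.472). PPP1R11, an inhibitor of protein phosphatase 1, had -0.055 and 0.835 (adjusted p = 0.587), and its low arrays were those of the Scr line at day 2, at 8.75 and 8.91. The difference at day 2 alone was called for both ALYREF probe sets and for PPP1R11, and not for CLDN6. An average over the days does not describe these genes.

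**Figure D4:**
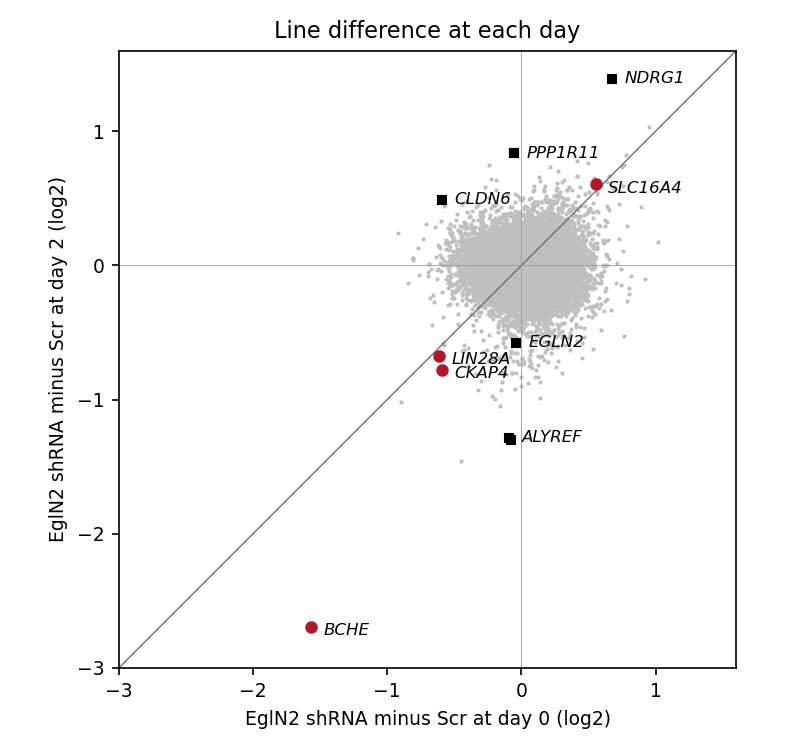
Each point is a probe set, with its log2 difference (EglN2 shRNA minus Scr) at day 0 on the x axis and at day 2 on the y axis; the diagonal marks equal differences. BCHE, CKAP4, LIN28A and SLC16A4 (red) are displaced at both days, while ALYREF, EGLN2 and PPP1R11 are near 0 at day 0 and displaced at day 2.

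Oxygen sensing was the pathway of the targeted gene. Of 11 measured oxygen sensors and HIF subunits 6 had a positive and 5 a negative difference, with 0 called and a median of 0.075, which turned to -0.02 when EglN2 shRNA day 2 replicate 1 was left out. It was 0.05 when Scr day 0 replicate 2 was left out and 0.025 when Scr day 2 replicate 1 was. The sister hydroxylases EGLN1 (-0.005, confidence interval -0.19 to 0.18) and EGLN3 (-0.08, interval -0.28 to 0.12) did not pass. The HIF subunit gene HIF1A had -0.12 (interval -0.38 to 0.14) and EPAS1 0.18 (interval -0.06 to 0.42). As each array was left out, HIF1A ran from -0.234 to -0.045, EGLN3 from -0.143 to -0.019 and EGLN1 from -0.059 to 0.047, and EPAS1 was 0.28 without EglN2 shRNA day 0 replicate 1. KDM3A, an oxygen-dependent histone demethylase that is itself a HIF target, read 8.0, 8.02, 8.16 and 8.19 in the EglN2 shRNA line, against 7.55, 7.73, 8.1 and 7.87 in the Scr line. Its lines overlap only through 1 Scr array of day 2, and 0.28 (SE 0.08) did not pass (adjusted p = 0.575). VHL had 0.12 (SE 0.08), or 0.07 without Scr day 0 replicate 1, and HIF3A -0.16 (SE 0.08), both short of the threshold.

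Most HIF target genes had a positive difference, and none was called. Of 24 measured members 19 had a positive and 5 a negative difference, with a median of 0.11, against 49.5% positive and a median of 0 over the 18417 genes. An unadjusted p under 0.05 with a positive difference was seen for 8 members, where 4.51% of all genes had one. A majority of positive differences was not particular to this list or to those below that share it. Among lists computed but not drawn, ribosomal proteins had 34 positive and 3 negative differences among 39 measured. Proteasome subunits had 23 and 5 among 28. Their medians were smaller, at 0.055 and 0.05, with 1 and 0 members at such a p. Replication-dependent histones went the other way, with 9 positive and 33 negative among 42. NDRG1, a stress protein linked to differentiation, had the only difference above 1 of the 21214 probe sets. It read 8.52, 8.24, 10.14 and 8.66 in the EglN2 shRNA line, against 7.99, 7.42, 8.17 and 7.85 in the Scr line. The lines do not overlap, but 1 array, EglN2 shRNA day 2 replicate 1, is far above the rest. The difference of 1.03 (SE 0.28, adjusted p = 0.521) became 0.665 without that array.

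The mitophagy receptor BNIP3L read 9.69, 9.85, 10.08 and 9.93 in the EglN2 shRNA line, against 9.31, 9.46, 9.75 and 9.82 in the Scr line, a difference of 0.30 (SE 0.08, adjusted p = 0.508). PDK1, a kinase that inhibits pyruvate dehydrogenase, read 8.95, 9.16, 9.57 and 9.52 in the EglN2 shRNA line. It read 8.4, 8.75, 9.15 and 9.39 in the Scr line, a difference of 0.38 (SE 0.10, adjusted p = 0.513). In both genes the day 0 arrays of the EglN2 shRNA line overlap the day 2 arrays of the Scr line. The mTOR inhibitor DDIT4 had 0.255 (SE 0.08). PDK1 and DDIT4 are also in other lists described here, so the lists are not independent.

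Genes of the amino acid stress response, switched on by the transcription factor ATF4, had a median of 0.16, at 0.13 on day 0 and 0.14 on day 2. Of 34 measured members 30 had a positive and 4 a negative difference, and 0 were called. Of the positive ones 15 had an unadjusted limma p under 0.05, where 4.51% of all genes had one with a positive difference. PSAT1, an enzyme of serine synthesis, read 10.26, 10.47, 11.29 and 11.01 in the EglN2 shRNA line, against 9.7, 10.02, 10.68 and 10.53 in the Scr line. At each day the EglN2 shRNA pair is above the Scr pair, and 0.525 (SE 0.10) did not pass (adjusted p = 0.244). The stress protein NUPR1 had 0.40 (SE 0.09, adjusted p = 0.373), and PSPH, the last enzyme of serine synthesis, 0.29 (SE 0.09). The median over the list's members, each centred on its mean, was -0.13 and -0.07 in the EglN2 shRNA line at day 0 and 0.31 and 0.245 at day 2. In the Scr line it was -0.28 and -0.19 at day 0, and 0.11 and 0.05 at day 2. Both lines were higher at day 2, and the line difference was smaller than that shift.

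All 18 measured genes of cholesterol synthesis had a positive difference, with a median of 0.155 (0.22 on day 0 and 0.145 on day 2) and 0 called. An unadjusted limma p under 0.05 was seen for 6 members, where 4.51% of all genes had one with a positive difference. LSS, which closes the sterol rings, read 9.54, 9.74, 10.03 and 9.93 in the EglN2 shRNA line, against 9.18, 9.41, 9.59 and 9.82 in the Scr line (difference 0.31, SE 0.09, adjusted p = 0.572). CYP51A1, the lanosterol demethylase, read 10.97, 10.97, 10.97 and 11.09 in the EglN2 shRNA line, against 10.53, 10.72, 10.77 and 10.95 in the Scr line (0.26, SE 0.08, adjusted p = 0.597). The Scr day 0 replicate 1 array is the lowest for both genes. The sterol oxidase MSMO1 had 0.485 (SE 0.18), or 0.27 without Scr day 0 replicate 1, and NSDHL, which acts just after it, 0.18 (SE 0.07). The list's centred median was 0.07, 0.06, 0.09 and 0.05 on the EglN2 shRNA arrays, and -0.26, -0.09, -0.10 and 0.08 on the Scr arrays. The Scr arrays spread more than the EglN2 shRNA arrays, and their highest one is within the EglN2 shRNA range. Without Scr day 0 replicate 1 the list median was 0.12.

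Centrosome and cilium genes had 24 positive and 3 negative differences among 27 measured, with a median of 0.14 and 0 called. The intraflagellar transport genes IFT122 (0.30, SE 0.08), IFT172 (0.28, SE 0.09) and IFT22 (0.20, SE 0.07) and the Bardet-Biedl gene BBS4 (0.29, SE 0.12) had the smallest p, with adjusted p between 0.521 and 0.668. IFT172 read 8.15, 8.02, 8.15 and 8.25 in the EglN2 shRNA line, against 7.98, 7.69, 7.78 and 7.99 in the Scr line, without overlap. The list median was 0.235 at day 0 and 0.04 at day 2, and 0.09 without Scr day 0 replicate 1.

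Lists of energy metabolism and growth had small positive medians. Respiratory chain subunits had 33 positive and 4 negative differences among 37 measured, with a median of 0.09. MYC and nucleolar genes had 22 and 1 among 23, with a median of 0.095. Glycolysis genes had 17 and 3 among 20, with a median of 0.08, and 0 members of the 3 lists were called. NDUFV1, a subunit of complex I, read 11.97, 11.92, 11.95 and 12.02 in the EglN2 shRNA line, against 11.78, 11.72, 11.81 and 11.88 in the Scr line, without overlap. POLR1B, a subunit of RNA polymerase I, read 10.17, 10.17, 10.09 and 10.15 in the EglN2 shRNA line, against 9.75, 9.94, 9.94 and 9.99 in the Scr line, also without overlap. The differences were 0.17 (SE 0.07, adjusted p = 0.670) and 0.24 (SE 0.08, adjusted p = 0.597), and neither passed. In glycolysis the kinase PDK4 had 0.325 (SE 0.08, adjusted p = 0.389), the aldolase ALDOC 0.35 (SE 0.11) and lactate dehydrogenase LDHA 0.22 (SE 0.08).

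Of 31 measured solute carriers for amino acids and metals 23 had a positive and 8 a negative difference, with a median of 0.085 and 0 called. The glutamate carrier SLC1A2 had 0.385 (SE 0.11, adjusted p = 0.574), the zinc carriers SLC39A6 and SLC39A11 0.20 (SE 0.07) and 0.27 (SE 0.10). SLC39A8, which carries zinc and manganese, read 9.89, 9.83, 9.64 and 9.58 in the EglN2 shRNA line, against 9.96, 9.98, 10.13 and 10.04 in the Scr line. Its lines do not overlap, at -0.29 (SE 0.09), which did not pass (adjusted p = 0.575). The list median was 0.05 without EglN2 shRNA day 0 replicate 2 or without Scr day 0 replicate 1.

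**Figure D5:**
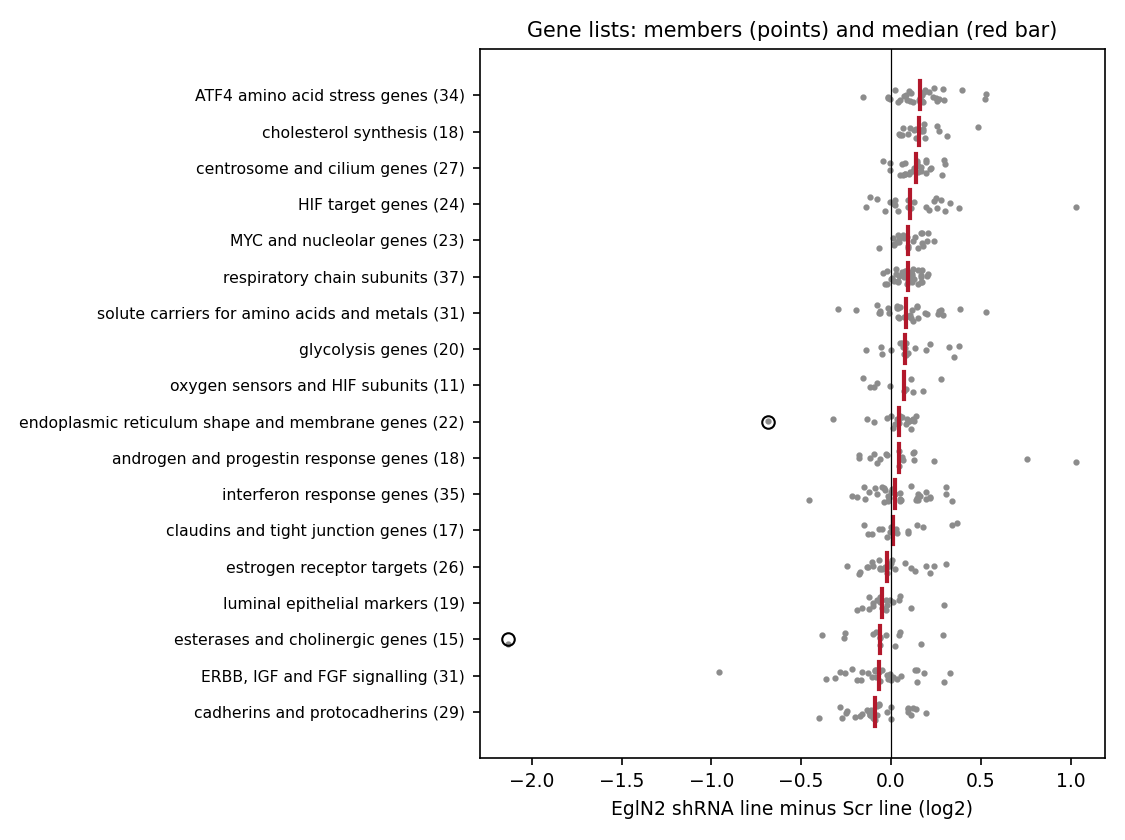
The x axis gives the log2 difference, EglN2 shRNA line minus Scr line. Points are the measured members of 18 of the 43 gene lists computed. Red bars are the list medians, and the number measured is in brackets. The medians run from 0.16 for ATF4 genes to -0.09 for cadherins and protocadherins; the circled members, BCHE and CKAP4, are the only ones called.

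The lowest medians of the 18 lists drawn were those of adhesion and growth factor genes. Cadherins and protocadherins had 8 positive and 20 negative differences among 29 measured. Their median was -0.09, or -0.055 without EglN2 shRNA day 2 replicate 1. It was 0.005 at day 0 and -0.09 at day 2, so the list leaned to negative values at day 2 only. PCDH9 read 5.4, 5.42, 5.23 and 4.95 in the EglN2 shRNA line, against 5.58, 5.5, 5.68 and 5.85 in the Scr line. The lines do not overlap, at -0.40 (SE 0.12, adjusted p = 0.574). PCDH17 (-0.175, SE 0.07) did not overlap either, while PCDH20 (-0.28, SE 0.12) and PCDHB5 (-0.245, SE 0.12) did, and 0 members were called. PCDHB5 was at -0.13 without EglN2 shRNA day 2 replicate 1.

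Genes of ERBB, IGF and FGF signalling had 9 positive and 22 negative differences among 31 measured, with a median of -0.07 and 0 called; without Scr day 0 replicate 1 the median was -0.04. IGFBP5, a secreted protein that binds insulin-like growth factors, read 10.99, 11.26, 10 and 10.44 in the EglN2 shRNA line, against 11.47, 11.68, 11.64 and 11.72 in the Scr line. Every EglN2 shRNA array is below every Scr array, with the lowest at day 2. The difference of -0.955 (SE 0.19) did not pass (limma adjusted p = 0.244), at -0.45 on day 0 and -1.46 on day 2. IRS1, the docking protein of the insulin and IGF receptors, read 6.86, 7.08, 6.99 and 6.89 in the EglN2 shRNA line, against 7.36, 7.52, 7.09 and 7.09 in the Scr line. It does not overlap either, at -0.31 (SE 0.09, adjusted p = 0.575). The receptors ERBB3 (0.295, SE 0.09) and FGFR2 (0.33, SE 0.12) had positive differences that did not pass.

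The list medians of hormone response genes were near 0. Estrogen receptor targets had 9 positive and 17 negative differences among 26 measured, with a median of -0.02 that ranged from -0.05 to 0.02 as each array was left out. The estrogen receptor gene ESR1 had -0.04 (interval -0.19 to 0.12) on one probe set and -0.19 (interval -0.36 to -0.01) on the other. Their limma adjusted p was 0.905 and 0.681. The first was dim, averaging 5.765 in the EglN2 shRNA line and 5.80 in the Scr line, and the second read 9.67 and 9.855. PGR, the progesterone receptor gene, had -0.06 (interval -0.29 to 0.17) and CCND1, which encodes cyclin D1, -0.085 (interval -0.33 to 0.16). As each array was left out, CCND1 ran from -0.159 to -0.003 and PGR from -0.14 to 0.044. The first ESR1 probe set ran from -0.069 to -0.01 and the second from -0.241 to -0.146. SERPINA1 (0.305, SE 0.08), an antiprotease, and the glycoprotein gene STC2 (0.24, SE 0.09) had the smallest p of the estrogen list.

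Androgen and progestin response genes had 10 positive and 8 negative differences among 18 measured, with a median of 0.04 that ranged from -0.004 to 0.0415 as each array was left out. APOD, a lipid-binding secreted protein, read 10.28, 10.86, 11.05 and 11.41 in the EglN2 shRNA line, against 9.57, 10.04, 10.21 and 10.75 in the Scr line. The lines overlap, but each EglN2 shRNA pair is above the Scr pair of its day. The difference was 0.76 (SE 0.17, limma adjusted p = 0.313), at 0.765 on day 0 and 0.75 on day 2. NDRG1, described among the HIF targets, is in this list too.

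Claudins and tight junction genes had 9 positive and 8 negative differences among 17 measured, with a median of 0.01 that ranged from -0.01 to 0.05 as each array was left out. CLDN1 read 13.23, 13.31, 13.13 and 13.2 in the EglN2 shRNA line, against 12.8, 12.84, 12.87 and 12.88 in the Scr line. The arrays of the lines are tightly grouped and apart, at 0.37 (SE 0.07), and the test was not passed (limma adjusted p = 0.244). CLDN8 had 0.34 (SE 0.11).

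Interferon response genes had 20 positive and 15 negative differences among 35 measured, with a median of 0.02 that ranged from -0.007 to 0.05 as each array was left out, and 0 called. IFIH1, a sensor of double-stranded RNA, read 7.49, 7.43, 7.39 and 7.49 in the EglN2 shRNA line, against 6.8, 7.1, 7.36 and 7.19 in the Scr line, without overlap (difference 0.34, SE 0.10, adjusted p = 0.575). IFI27 had -0.46 (SE 0.14) and OAS2, which makes the messenger that activates RNase L, -0.22 (SE 0.10), or -0.13 without Scr day 0 replicate 1. Members thus had values of both signs, and none of those named passed.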

How the data were processed

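The authors deposited log2 levels of probe sets on Affymetrix Human Gene 1.0 ST arrays. The submitters' processing notes name RMA and Affymetrix Expression Console, with versions not given in the sources used here. The first of these adjusts background, equalises the arrays and summarises each set's probes, and compresses differences of dim genes. Values run from 2.73 to 15.25, with array medians of 7.81 to 7.86 over the tested probe sets, and were used without further scaling.

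The platform's table names 1 gene for 19460 probe sets, several for 1754 and none for 12083. RefSeq (GRCh38.p14) gave the current symbol for 19429 of the single names by their gene ID. The line difference was fitted in R 4.3.3 with lmFit and eBayes of limma 3.58.1, with terms for line and day; 5 residual degrees of freedom were joined by 5.47 of the prior. Tests were two-sided, with Benjamini-Hochberg adjustment over 21214 probe sets. Changes between days used a line by day term, and values at each day the 4 group means. The fitting steps were tested on simulated data.

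Lists held 1 probe set per gene, the one with the highest mean, and got no test. Described were EGLN2 with 9 genes always named, called single-gene probe sets whose lines do not overlap, up to 4 members of a list with the smallest p, and the 2 largest moderated values in each direction between days. Members, lists and tests were chosen with earlier results of these data known. Alternatives were another model, scaling, filter, prior or set of arrays. Scanner files were not analysed here.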

Additional observations from a re-analysis of the deposited data

Results flagged for a closer look

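In 186 groups of 4 arrays, 1 line and 1 probe set each, the highest or lowest array was compared with the rest by its gap to the nearest array over the group's range. Chance flags about 1 in 20 such groups, and 7 stood out. In the EglN2 shRNA line CIMAP3 was low at 6.95 on day 0 replicate 2, BBS4 high at 9.69 on day 2 replicate 2, and UTP4 high at 12.28 on day 2 replicate 1. In the same line MCFD2 was low at 9.31 on day 2 replicate 1 and CYP51A1 high at 11.09 on day 2 replicate 2. In the Scr line both ALYREF probe sets were high on day 0 replicate 1, at 12.18 and 12.25. None of the 4 called genes was among them.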

How the results depend on the processing

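The count of called probe sets, 1 higher and 3 lower, moved with most alternatives. Lower calls were 6 with group means averaged over the days, which added both ALYREF probe sets and IGFBP5. Without a day term they were 0 higher and 1 lower (BCHE). With only day 0 arrays, only day 2 arrays, or all probe sets of the table, they were 0 and 0. Quantile normalization left 1 lower, with BCHE and LIN28A lost, and probe sets with 1 gene gave 2 higher. A prior variance following intensity gave 0 higher, with SLC16A4 and LIN28A lost. No moderation gave 0 lower, and its single call was CLEC2A and none of the 4 genes. Testing only the brighter probe sets left out BCHE and SLC16A4, which are dim, and called LIN28A, CKAP4 and PDE8B. Leaving out each array in turn gave 0 to 5 higher and 0 to 4 lower. At day 2 the 16 calls became 26 with the intensity-following prior and 0 to 15 as arrays were left out; at day 0 they were 0 throughout. These alternatives for single days were chosen after seeing the data. For the change between days, the same prior called 2, both ALYREF, and leaving out arrays 0. EGLN2 ran from -0.40 to -0.24 over the arrays left out.

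The main fit did not take the replicate numbers to pair the arrays. Yet replicate 1 deviations correlated positively between every pair of groups, at 0.0981 to 0.271, with only 1 pair under 0.1. These values do not show that the replicates are unpaired. A replicate block gave 4 higher calls, adding APOD, PDE8B and CDC20B, kept all 4 called genes, and gave 0 calls for the change between days. With it 1849 probe sets had an unadjusted limma p under 0.05, against 1549 in the main fit.

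Signs turned for values near 0. With day 0 arrays PGR was 0.010, HIF1A 0.135, MARVELD2 0.010, PCDHB5 0.005, PPP1R11 -0.055, one ESR1 probe set 0.010 and AGR2 0.040. With day 2 arrays EGLN1 was 0.085 and CLDN6 0.490, and EGLN1 was 0.015 with centred arrays. As single arrays were left out, EGLN1 ran from -0.059 to 0.047, CLDN6 from -0.207 to 0.078 and PGR from -0.14 to 0.044. The alternatives other than arrays left out changed the test or the values together, and the cause of each lost call was not tested. With 4 arrays a line, small differences are beyond the precision, and p-values say nothing of other infected lines.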

Other observations

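Cilium genes beyond the centrosome and cilium list were looked at after CDC20B, SPATA17, CIMAP3 and CCDC146 had been noticed among the smallest p. CDC20B, which lies in a locus used by multiciliated cells, read 7.44, 6.54, 6.76 and 6.76 in the EglN2 shRNA line, against 6.2, 5.88, 5.77 and 5.68 in the Scr line. SPATA17 read 6.7, 6.59, 6.75 and 6.78 in the EglN2 shRNA line, against 6.12, 5.66, 6.27 and 6.08 in the Scr line. In both genes the lines do not overlap, at 0.99 (SE 0.16, limma adjusted p = 0.154) and 0.67 (SE 0.11, adjusted p = 0.149). Of 36 further ciliary genes, leaving out the members first noticed by their values, 26 had a positive and 10 a negative difference, with 0 called. Over all genes 49.5% of the differences were positive. The median of these ciliary genes was 0.09 (0.118 at day 0 and 0.07 at day 2).

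Genes of Golgi and secretory traffic were looked at in the same way. MCFD2, which helps to load cargo at the endoplasmic reticulum, read 9.42, 9.42, 9.31 and 9.44 in the EglN2 shRNA line, against 8.99, 8.98, 8.67 and 8.91 in the Scr line (difference 0.51, SE 0.08, adjusted p = 0.149). The lines do not overlap. GOLM1, a Golgi membrane protein, read 10.8, 10.98, 10.84 and 11.06 in the EglN2 shRNA line, against 10.28, 10.67, 10.03 and 10.31 in the Scr line (0.60, SE 0.12, adjusted p = 0.251). It does not overlap either. Of 28 further members 23 had a positive and 4 a negative difference, where 49.5% of all genes had a positive one, and 0 were called. Their median was 0.10, at 0.138 on day 0 and 0.005 on day 2.

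PDE8B, a phosphodiesterase of cyclic AMP, was nearest to the threshold. It read 8.6, 8.83, 8.98 and 9.2 in the EglN2 shRNA line, against 7.98, 8.15, 8.42 and 8.43 in the Scr line, without overlap, at 0.66 (SE 0.09, adjusted p = 0.0554). USP6NL, a GTPase-activating protein of endocytic Rab proteins, read 9.04, 9.15, 8.93 and 8.96 in the EglN2 shRNA line, against 9.41, 9.58, 9.64 and 9.75 in the Scr line, also without overlap (-0.575, SE 0.09, adjusted p = 0.149). All genes of these paragraphs were chosen after their values were seen.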
